A study of Mus musculus with 12 samples.

Results

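Cholecystokinin, galanin, neurotensin, neuropeptide FF, thyrotropin-releasing hormone (TRH) and CART are peptide transmitters of spinal and brain neurons. Their 6 precursor genes (Cck, Gal, Nts, Npff, Trh and Cartpt) and 4 receptor genes (Cckbr, Galr1, Ntsr1 and Ntsr2) were followed here in laser-captured spinal motor neurons (SMNs) and in posterior horn cells of the mouse. The genes were chosen by name as peptides of these families and their receptors, with earlier results of these data known. All 10 were measured, each by 1 of the 24343 transcript clusters with a single gene symbol among 238609 gene-level rows, and all 10 remained when the dimmest 25% of the clusters were left out. At the exon level they had 73 of 1195555 probesets.

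All samples came from untreated male mice of 6 weeks and strain C57Bl/6 (C57BL/6J in the study's methods), and 3 arrays per group were hybridized. SMNs were large cells picked one by one from the anterior horn of the cervical cord of 3 mice. The control was cut from the dorsal horn of 3 mice as areas of tissue, so that it held neurons of many kinds, glia and vessels. The sample labels call it posterior column, and the raw files are named for sensory neurons. Posterior horn is used below. After linear amplification, the RNA was hybridized to Affymetrix Mouse Exon 1.0 ST arrays. Whether an array stands for 1 mouse is not stated. The p-values therefore weigh a group difference only against the scatter between arrays of a group, which may be technical. In limma this scatter is moderated by that of all rows tested. With 3 arrays per group the precision of the p-values is limited.

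Neuropeptides are cut from larger precursor proteins in the secretory pathway, stored in dense-core granules and released to act mostly on G protein-coupled receptors. In the dorsal horn, cholecystokinin, neurotensin and neuropeptide FF mark sets of local interneurons that shape pain and touch signals, and galanin is found in interneurons and in sensory afferents. TRH reaches motor neurons in fibres from the brainstem raphe. CART is best known as a peptide of hypothalamic, autonomic and sensory neurons.

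Of the 10 genes, Cartpt was higher in SMNs, and Cck, Npff, Trh, Cckbr and Ntsr2 were lower (limma, adjusted p under 0.05). Gal, Nts, Galr1 and Ntsr1 did not pass the test. Over all transcript clusters tested, 13.8% were called higher and 12.6% lower. The share of lower genes, 5 of 10, was above that background, and the share of higher genes, 1 of 10, was below it. The genes were chosen with earlier results of these data known, so these shares are not independent of the choice. The background also includes the dimmest 25% of clusters, where none of the 10 genes lay. The median log2 fold change (SMN minus posterior horn, on the log2(intensity + 1) scale) was -1.24 over the 10 genes, -1.10 over the 6 precursors and -1.37 over the 4 receptors, against 0.02 over all clusters. Adding 1 before the log2 understates the change of dim genes. The groups did not overlap in 1 gene that was higher and 6 that were lower, where 24.1% of all clusters lay wholly higher and 21.4% wholly lower in SMNs. An exact permutation test of 3 against 3 arrays cannot give a p below 0.1, and it gave 0.1 for each of these 7 genes.

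**Figure D1:**
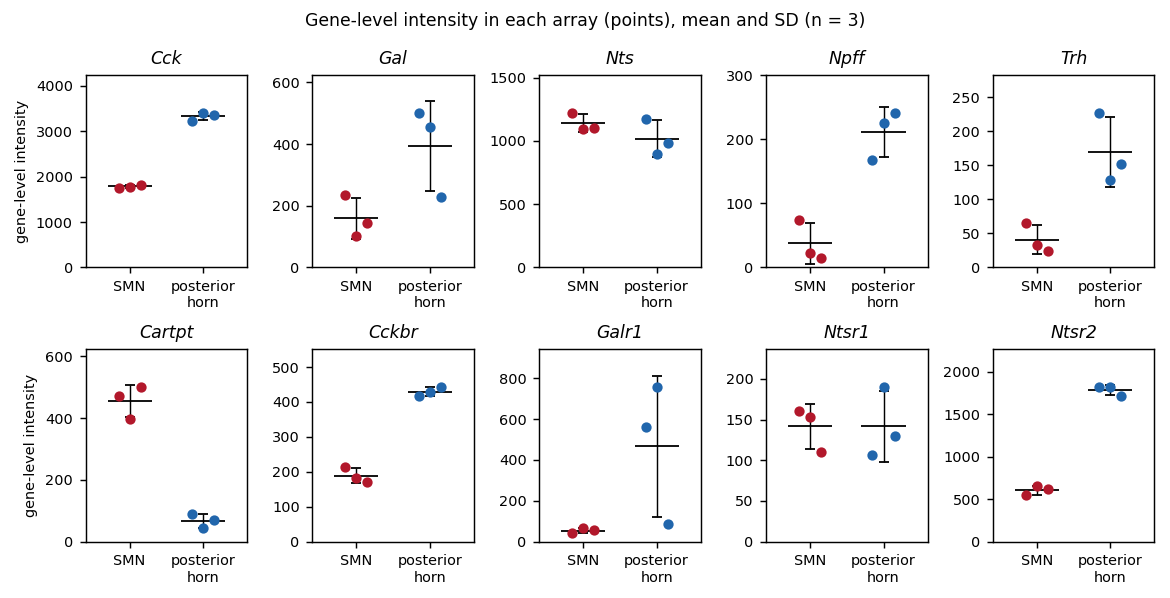
Gene-level intensity (linear, from 0) of the 10 genes in each array (points), with the mean and SD of the 3 SMN and 3 posterior horn arrays (bars). Cartpt was higher in every SMN array, Cck, Npff, Trh, Cckbr, Galr1 and Ntsr2 were lower in every SMN array, and the groups overlapped for Gal, Nts and Ntsr1.

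The promoter sequences of the precursors and receptors were read for the cAMP response element (CRE, TGACGTCA). Neuronal activity is known to act through this site on many neuropeptide genes. Its half-site (TGACG, or CGTCA on the other strand) was read as well. RefSeq sequences of GRCm38.p6 matched 8 of the 10 genes, with none for Npff and Galr1. In the 250 bases before the start, both strands read, Cartpt was the 1 of 8 with the CRE, which 1.55% of 32851 promoters held. The half-site was found in 5 of 8 (Cartpt, Cck, Nts, Ntsr1 and Trh), against 17.8% of promoters. Of these, Nts and Ntsr1 did not pass the test of expression. Cckbr and Ntsr2, which were lower in SMNs, held neither motif, nor did Gal. The CRE holds the half-site on both strands, so the Cartpt matches overlap. The 150 bases before the start are shown for Cartpt, the precursor that was higher in SMNs, and for Cck and Trh, which were lower and hold only the half-site in that stretch. Capitals mark the CRE in Cartpt and the half-site in the other two. All 3 genes lie on the minus strand, and the sequences run 5′ to 3′ on it, at chr13:99900684-99900833, chr9:121495695-121495844 and chr6:92244651-92244800.
Cartpt: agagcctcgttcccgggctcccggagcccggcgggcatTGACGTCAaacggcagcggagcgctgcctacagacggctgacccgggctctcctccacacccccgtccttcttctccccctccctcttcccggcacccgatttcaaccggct
Cck: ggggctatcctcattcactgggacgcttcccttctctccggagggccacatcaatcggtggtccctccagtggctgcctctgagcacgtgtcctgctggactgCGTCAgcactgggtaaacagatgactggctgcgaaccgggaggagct
Trh: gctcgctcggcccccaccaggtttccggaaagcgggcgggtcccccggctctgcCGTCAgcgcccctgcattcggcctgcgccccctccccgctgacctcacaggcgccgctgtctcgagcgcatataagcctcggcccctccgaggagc
The Cartpt CRE lay 112 to 105 bases before the start, the Cck half-site 47 to 43 and the Trh half-site 96 to 92. These are matches of letters, and binding was not measured.

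Cck, the precursor of cholecystokinin, was lower in SMNs. In the order of the replicate numbers, which is kept throughout, its intensity was 1755, 1778 and 1820 in SMNs and 3235, 3400 and 3365 in the posterior horn. Every SMN array lay far below every posterior horn array, with little spread inside either group. The mean was 1784 ± 33.1 in SMNs and 3333 ± 87.0 in the posterior horn (SD, n = 3), a 1.87-fold difference (95% interval 1.49 to 2.34, limma adjusted p = 0.00661). In such bulk samples, fewer cells of a type and less RNA per cell cannot be told apart.

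Of 7 Cck probesets, 5 were lower in every SMN array and 2 overlapped, with log2 differences from -1.11 to -0.22. Of all probesets, 10.8% lay wholly higher and 8.7% wholly lower in SMNs, and of those with a single symbol 17.2% and 12.3%. The probeset with the largest difference was 9.10, 9.16 and 9.32 in SMNs and 10.32, 10.34 and 10.26 in the posterior horn (log2 values). None of the 7 passed the test over all probesets, where 0.57% were called higher and 0.654% lower in SMNs. The differences did not vary detectably along the gene (diffSplice, adjusted p = 0.743), a test passed by 21.4% of 21412 genes. The call on Cck held in all 17 alternative treatments of the data.

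Gal, the precursor of galanin, was lower on average but did not pass the test. Its intensity was 233, 103 and 144 in SMNs and 501, 456 and 229 in the posterior horn. The lowest posterior horn array, replicate 3, fell just below the highest SMN array, so the groups overlapped. The log2 fold change was -1.30 (95% interval -2.31 to -0.29, limma adjusted p = 0.0643, exact permutation p = 0.2). Without posterior horn replicate 3 it was -1.65 and passed (adjusted p = 0.0371), as it did in 4 other of 17 alternatives. At the exon level 2 of 7 probesets were separated and lower, none was called, and posterior horn array 3 was the lowest of its group in 5. Among all probesets with a single symbol, 12.3% were separated and lower.

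Nts, which encodes the shared precursor of neurotensin and neuromedin N, did not pass the test. SMN arrays read 1220, 1094 and 1105, and posterior horn arrays 1175, 895 and 986. The first array was the highest in each group, and the groups overlapped. The log2 fold change was 0.17 with an interval of -0.23 to 0.57 (limma adjusted p = 0.488, exact permutation p = 0.3). All 7 probesets gave small differences, from -0.01 to 0.38, and none was called.

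Npff, the precursor of neuropeptide FF, a peptide known for its action on opioid signalling, showed the largest fold difference among the precursors that were lower. Its intensity was 74.6, 23.0 and 14.7 in SMNs and 167, 226 and 241 in the posterior horn. SMN array 1 was well above the other SMN arrays yet below all posterior horn arrays. The difference was 6.86-fold (95% interval 2.61 to 18.0, limma adjusted p = 0.0177). SMN array 3 lay below the 10th percentile of all named clusters (21.3 in that array), so the size of the fold is poorly fixed. The log2 fold change, -2.78 here, was -3.43 without SMN replicate 1 and -1.38 with the median exon-level value of the gene.

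All 4 Npff probesets were lower in every SMN array, by -2.74 to -0.69, although none passed over all probesets. Of probesets with a single symbol, 12.3% were likewise wholly lower. SMN array 1 was the highest of its group in the probeset that differed most, at 7.04 against 5.09 and 4.91 (log2 values), and the lowest in another, at 4.02 against 4.67 and 4.72. The call on Npff was lost in 5 of 17 alternatives. Among them, the adjusted p was 0.0622 without SMN replicate 2, 0.0543 without posterior horn replicate 2 and 0.0537 without posterior horn replicate 3.

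Trh, which encodes the precursor of TRH, was also lower in SMNs. Its intensity was 65.3, 32.5 and 24.6 in SMNs and 226, 128 and 152 in the posterior horn. The first array was the brightest of each group, and the lowest posterior horn array was still above it. The difference was 4.29-fold (95% interval 2.18 to 8.45, limma adjusted p = 0.0141). It passed in 15 of 17 alternatives, but not without SMN replicate 2 (adjusted p = 0.0534). Its log2 fold change of -2.10 became -1.30 with exon-level medians.

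The Trh probesets did not move alike (diffSplice, adjusted p = 0.000238), a test passed by 21.4% of 21412 genes. Of all probesets with a single symbol, 12.3% lay wholly lower in SMNs. Of the 5 of Trh, 3 were lower in every SMN array and 2 overlapped. The one that differed most read 6.22, 5.2 and 3.74 in SMNs and 8.63, 8.55 and 7.71 in the posterior horn, whereas another read 5.32, 6.09 and 6.02 against 5.14, 5.44 and 5.70. Probes that respond weakly and transcripts that differ in structure cannot be told apart from these values.

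Cartpt, the CART precursor, was the single gene of the 10 that was higher in SMNs. Its intensity was 471, 398 and 500 in SMNs and 90.2, 44.5 and 70.0 in the posterior horn. The dimmest SMN array was several-fold brighter than the brightest posterior horn array. The means were 456 ± 52.5 and 68.2 ± 22.9 (SD, n = 3), a 6.84-fold difference (95% interval 4.26 to 10.97, limma adjusted p = 0.00231). The call held in all 17 alternatives, with log2 fold changes from 1.89 (exon-level medians) to 3.00 (without posterior horn replicate 1), beside 2.77 here.

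Each of the 5 Cartpt probesets was higher in every SMN array, where 17.2% of probesets with a single symbol lay wholly higher. Of the 5, 2 passed over all probesets, where 1.44% of those with a single symbol were called higher. The first of the 2 was 9.27, 8.78 and 9.44 in SMNs and 6.50, 5.32 and 5.83 in the posterior horn (log2 fold change 3.27, limma adjusted p = 0.0127). The second was 7.58, 7.37 and 7.39 against 3.54, 4.90 and 3.32 (3.53, adjusted p = 0.0173). The other 3 differed by 0.32 to 0.93, so that the probesets fell into a strong pair and a weak group, and their differences were unequal (diffSplice, adjusted p = 1.15e-06).

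**Figure D2:**
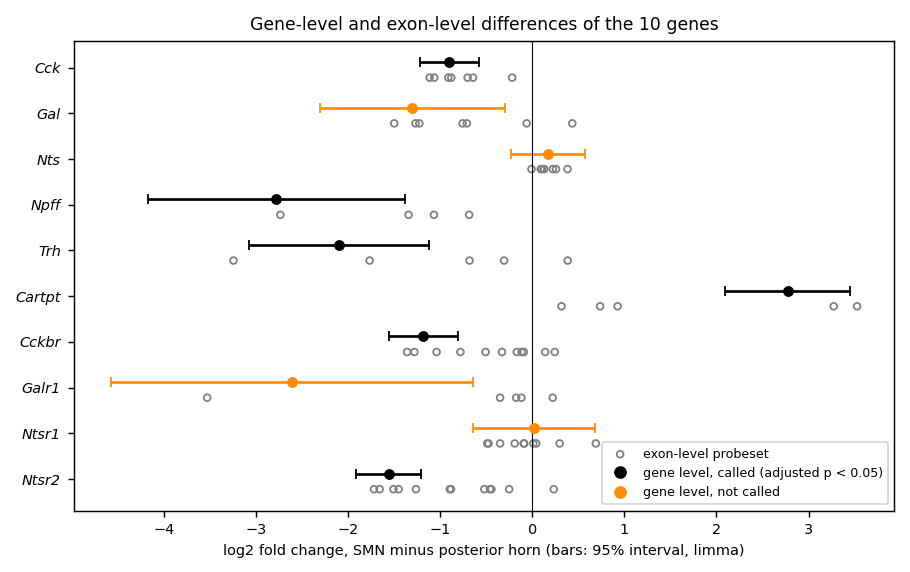
Log2 fold change (SMN minus posterior horn) of each gene at the gene level (filled points, with 95% intervals from limma, black where called and orange where not) and of each of its exon-level probesets (open circles). Cartpt lay to the right of 0 in all its probesets and Npff and Cck to the left, whereas most probesets of Galr1 and Cckbr lay near 0.

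Among the receptors, Cckbr encodes the cholecystokinin B receptor, the main cholecystokinin receptor of the nervous system. Its intensity was 214, 183 and 171 in SMNs and 417, 430 and 442 in the posterior horn. All SMN arrays were below all posterior horn arrays, which differed little from each other. The difference was 2.27-fold (95% interval 1.76 to 2.94, limma adjusted p = 0.00461).

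At the exon level the fall of Cckbr was carried by 3 of 11 probesets, which were lower in every SMN array by -1.36, -1.28 and -1.04. Among all probesets with a single symbol, 12.3% lay wholly lower. The other 8 Cckbr probesets overlapped, and none of the 11 was called. With the median exon-level value of the gene in place of the deposited gene-level value, its log2 fold change was -0.04 and did not pass (adjusted p = 0.906). Cckbr passed in the other 16 of 17 alternatives.

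Galr1 encodes galanin receptor 1, an inhibitory receptor. Its intensity was 42.7, 64.8 and 54.7 in SMNs and 561, 755 and 85.1 in the posterior horn. Posterior horn array 3 stood far below arrays 1 and 2 and close to the SMN arrays, but the groups did not overlap. The log2 fold change was -2.61 with a wide interval (-4.58 to -0.65, limma adjusted p = 0.0596). Without posterior horn replicate 3 it was -3.59 and passed (adjusted p = 0.00422), and it also passed in 4 other of 17 alternatives. It was -2.02 without posterior horn replicate 2 (adjusted p = 0.138) and -0.66 with exon-level medians (adjusted p = 0.0829).

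One Galr1 probeset did not share the low value of posterior horn array 3. It read 3.70, 4.17 and 4.21 in SMNs and 7.20, 7.87 and 7.60 in the posterior horn, all 3 arrays of a group lying close together. It differed by -3.53 and passed over all probesets (limma adjusted p = 0.00428). Another probeset read 5.61, 6.12 and 5.82 against 6.88, 6.71 and 5.01, so that there posterior horn array 3 was the lowest of all 6. The other 3 Galr1 probesets differed by -0.17 to 0.22. The differences along the gene were unequal (diffSplice, adjusted p = 0.000151).

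Ntsr1, the neurotensin receptor of high affinity, did not pass the test either. SMN arrays read 161, 154 and 110, and posterior horn arrays 106, 190 and 129. The log2 fold change was 0.02, with an interval of -0.64 to 0.69 that leaves room for a change of either sign (limma adjusted p = 0.962, exact permutation p = 0.9). Of 10 probesets, 1 was higher and 2 were lower in every SMN array, and none was called. Among all probesets with a single symbol, 17.2% lay wholly higher and 12.3% wholly lower.

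Ntsr2 encodes neurotensin receptor 2, which in rodents is found in astrocytes as well as neurons. Its intensity was 551, 652 and 618 in SMNs and 1818, 1818 and 1716 in the posterior horn. The groups were far apart against their spread, with means of 607 ± 51.5 and 1784 ± 58.9 (SD, n = 3). The difference was 2.94-fold (95% interval 2.30 to 3.76, limma adjusted p = 0.00179), and it passed in all 17 alternatives. The log2 fold change was -1.56, and -0.95 with exon-level medians.

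At the exon level 8 of 12 Ntsr2 probesets were lower in every SMN array, against 12.3% of all probesets with a single symbol. Of the 8, 5 passed over all probesets, with differences of -1.72 to -1.26. The one with the smallest adjusted p was 9.16, 9.39 and 9.34 in SMNs and 11.08, 10.97 and 10.82 in the posterior horn (log2 values, difference -1.66, limma adjusted p = 0.0179). The other 7 ranged from -0.90 to 0.23, and the differences along the gene were unequal (diffSplice, adjusted p = 1.22e-06). Over the 73 probesets of the 10 genes, 2 were called higher (both of Cartpt) and 6 lower (5 of Ntsr2 and 1 of Galr1), and 7 were higher and 28 lower in every SMN array. Without any one of the SMN arrays, 0 were called higher and 1 lower. Without posterior horn replicate 1, 2 or 3, respectively 1, 2 and 2 were called higher and 1, 1 and 2 lower. Among all 319246 probesets with a single symbol, 1.44% were called higher and 1.48% lower, and 17.2% lay wholly higher and 12.3% wholly lower in SMNs.

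**Figure D3:**
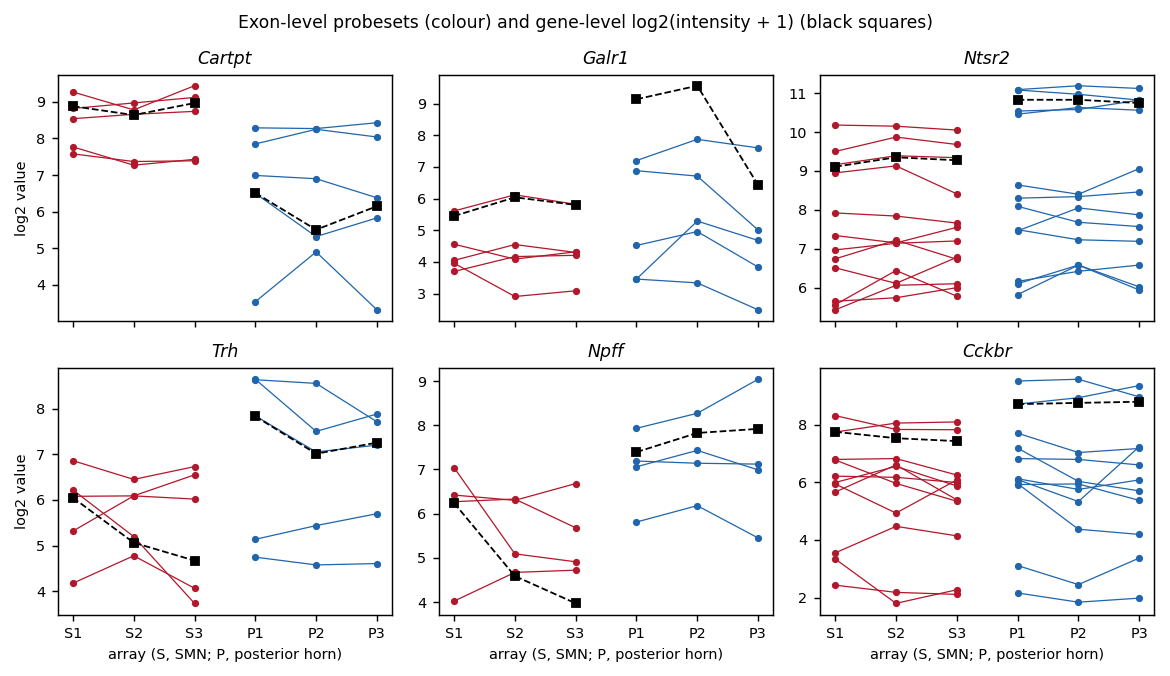
Exon-level log2 value of each probeset (coloured lines, red for SMN and blue for posterior horn) and gene-level log2(intensity + 1) (black squares) in the 6 arrays for 6 of the genes, with SMN arrays S1 to S3 and posterior horn arrays P1 to P3 on the x axis. The gene-level value of Galr1 drops in P3, whereas 1 of its probesets stays at 7.60 there.

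Other receptors and relatives of these peptides were read from a list of 14 genes, all measured. Of these, 3 were higher, 4 lower and 7 did not pass (median log2 fold change 0.13), where 13.8% of all clusters were called higher and 12.6% lower. Trhr, the TRH receptor, was higher in SMNs, opposite to Trh. Its intensity was 2574, 2643 and 2386 in SMNs and 451, 463 and 457 in the posterior horn, a 5.53-fold difference (95% interval 4.39 to 6.96, limma adjusted p = 0.00046) that held in all 17 alternatives. Trhde, which encodes the ectoenzyme that degrades TRH, was 67.0, 78.3 and 107 in SMNs and 436, 281 and 306 in the posterior horn, 4.02-fold lower (adjusted p = 0.00442). The groups did not overlap in either gene. The second TRH receptor of rodents, Trhr2, was 1.81-fold lower (adjusted p = 0.0354), but that call was lost in 9 of 17 alternatives, in one of which (exon-level medians) the difference changed sign. Among the 9 were those without any SMN array and without posterior horn replicate 1 or 3, with adjusted p from 0.0663 to 0.110.

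Of the cholecystokinin system, Cckar, the A receptor, was 82.2, 92.2 and 92.6 in SMNs and 131, 200 and 190 in the posterior horn. The groups did not overlap, and it was 1.91-fold lower (95% interval 1.35 to 2.71, limma adjusted p = 0.0218), a call lost in 6 of 17 alternatives. The adjusted p ranged from 0.0580 to 0.0778 without SMN replicate 1, 2 or 3 or posterior horn replicate 2 or 3, and was 0.827 with exon-level medians. Cck and both its receptors were thus lower in SMNs at the gene level, with the limits given for the receptors.

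Of the neuropeptide FF system, the receptor gene Npffr2 read 6.74, 5.34 and 0.630 in SMNs and 61.6, 56.3 and 109 in the posterior horn (log2 fold change -4.09, limma adjusted p = 0.00744). The SMN values lay below the 10th percentile of named clusters, which was 21.2 to 21.4 in these arrays, so that the size of the change rests on values near the floor. Over the 16 alternatives that kept it, it lay between -4.67 and -1.53 and was called in each, at -3.39 without SMN replicate 3 and at -2.15 with 16 added before the log2. The other receptor, Npffr1, was 86.0, 112 and 103 against 72.6, 70.5 and 68.0, wholly higher in SMNs but not called (log2 fold change 0.50, adjusted p = 0.0657). Npvf, which encodes related peptides, overlapped between groups (log2 fold change -0.23).

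The galanin receptor genes Galr2 and Galr3 and the galanin-like peptide gene Galp did not pass (log2 fold changes 0.09, 0.20 and -0.19). Of the sorting receptors, Sort1, known as a further neurotensin-binding protein, did not pass (0.16), while its relatives Sorl1 and Sorcs1 were 1.86-fold and 2.38-fold higher (limma adjusted p = 0.00765 and 0.0122). The call on Sorcs1 was lost with exon-level medians. Gpr160, proposed as a receptor for CART, was dim and did not pass (0.26). Among Nts, Ntsr1, Ntsr2 and Sort1, Ntsr2 was thus lower, and the others did not pass.

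**Figure D4:**
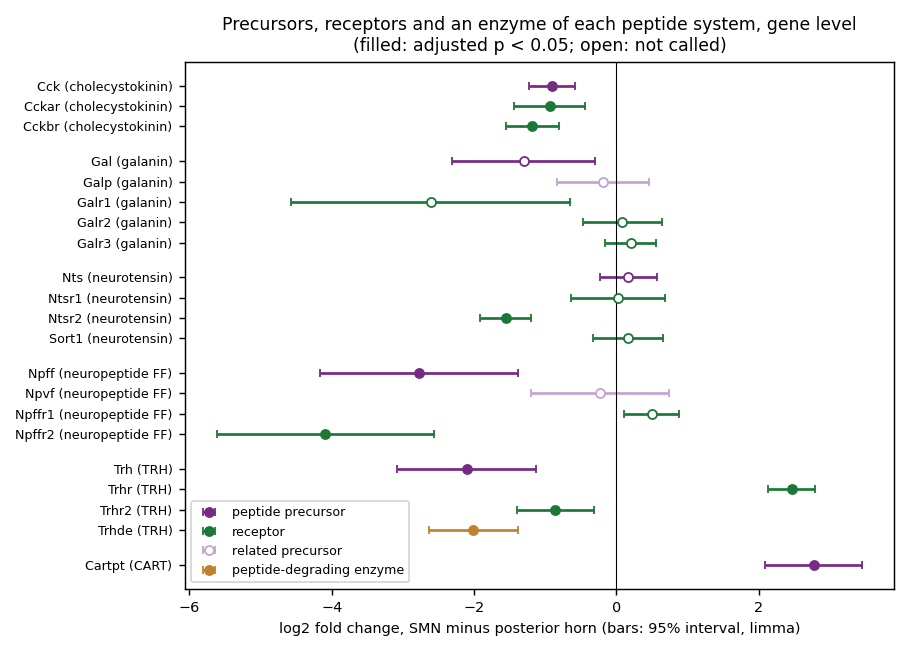
Log2 fold change (SMN minus posterior horn, gene level, 95% intervals from limma) of precursors, receptors and an enzyme, grouped by peptide system, with filled points for an adjusted p under 0.05 and open points for genes not called. Trhr lay at 2.47 while Trh, Trhr2 and Trhde lay below 0, and the 3 cholecystokinin genes lay below 0.

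Genes of peptide processing and dense-core granules were mixed. Of 17 measured of 18 listed, 2 were higher, 8 lower and 7 did not pass (median log2 fold change -0.31). Over all clusters, 13.8% were called higher and 12.6% lower. Pcsk1, the convertase that begins the cleavage of many neuropeptide precursors, was 127, 208 and 120 in SMNs and 1224, 1228 and 746 in the posterior horn, 7.04-fold lower (95% interval 4.19 to 11.8, limma adjusted p = 0.00283). Its log2 fold change was -2.82, and -2.12 with exon-level medians. Qpct, which forms the N-terminal pyroglutamate of peptides such as TRH and neurotensin, was 3.45-fold lower (adjusted p = 0.0123, lost with exon-level medians). Chga, the granule protein chromogranin A, and Cadps, a priming factor of dense-core granules, were 1.97-fold and 1.78-fold higher (adjusted p = 0.00744 and 0.00810). In each of these 4 genes the groups did not overlap, where 24.1% of all clusters lay wholly higher and 21.4% wholly lower in SMNs.

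The labels of both groups were checked against markers. Over all clusters, 13.8% were called higher and 12.6% lower in SMNs. Of 8 cholinergic and motor neuron markers, 7 were higher in SMNs, with a summed intensity of 25690 to 26730 against 473 to 594, and Chat, the enzyme of acetylcholine synthesis, read 1749 to 1842 against 11.4 to 13.98. The exception, Mnx1, a transcription factor of motor neuron development, was 135, 172 and 177 in SMNs and 213, 238 and 237 in the posterior horn. It was wholly lower in SMNs but not called (log2 fold change -0.51, limma adjusted p = 0.0709). The study, from its array data, ranked Mnx1 above Rspo2 in specificity for SMNs. The value read here differs from that, and the reason was not tested. Of 12 excitatory dorsal horn markers, 6 were lower and 1 (Mafa) was higher, summing to 3049 to 3468 in SMNs and 11350 to 12360 in the posterior horn. Of 8 inhibitory markers 5 were lower and none was higher, summing to 5116 to 5689 in SMNs against 16420 to 17720. The 2 brightest of them in SMNs, Slc32a1 and Slc6a5, were not called. Their means were 1997 and 2269 in SMNs against 2746 and 2518 in the posterior horn. No marker of these lists was listed at 0. These lists moved in the same direction as Cck, Npff, Trh and Cckbr, and their part in those differences was not tested.

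Glial and vascular markers were also lower in SMNs without being absent. Of 11 measured astrocyte markers 10 were lower and 1 (S100b) was higher, with sums of 10010 to 10910 against 22650 to 23640. Aqp4, the astrocytic water channel, was 847, 981 and 990 in SMNs and 3266, 3228 and 3461 in the posterior horn. Its log2 fold change was -1.82, beside -1.56 for Ntsr2, and the part of astrocytes in the Ntsr2 difference was not tested. All 11 oligodendrocyte markers, 8 of 9 microglial and 7 of 10 endothelial and mural markers were lower. Of 8 measured primary sensory markers, 1 (Pou4f1) was lower and 1 (Prdm12) higher, near the shares over all clusters (12.6% lower and 13.8% higher). Over the named clusters, arrays correlated at 0.960 or more within SMNs, 0.936 or more within the posterior horn and 0.888 or less between the groups. Their median intensity was 32.9 to 35.2 over all gene-level rows and 133 to 144 over the named clusters.

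The genes whose profile over the 6 arrays was most like that of the 4 genes with the smallest adjusted p were found by the root mean square difference of centred log2 values, among 20260 symbols. Nearest to Ntsr2 were Fnbp1l (0.03), Chn2 (0.05) and Shtn1 (0.06). Cartpt was nearest to Impdh1 (0.11), S100a10 (0.12) and Hspb8 (0.15). For Cckbr they were Ypel2 (0.04), Cx3cr1 (0.06), the microglial chemokine receptor, and Hoxa5 (0.06). Rnf44 (0.03), Rai2 (0.04) and Smarcc2 (0.04) lay nearest to Cck. With 6 arrays in 2 groups, genes with a group difference of like size come out as near.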

How the data were processed

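SMNs and posterior horn tissue were measured on 3 arrays each. The authors deposited gene-level linear intensities and exon-level log2 values of the same arrays, made with Affymetrix Expression Console 1.3.1.187 (submitters' processing notes). How background was corrected and probes summarized, and the genome build, is not given in the sources used here. Medians were alike, so no further normalization was applied. At the gene level log2(intensity + 1) was taken. Clusters and probesets were named from GEO platform annotation.

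Groups were compared with limma 3.58.1 in R 4.3.3 (lmFit, eBayes, two-sided, Benjamini-Hochberg over 24343 clusters or 1195555 probesets), and probesets of a gene with diffSplice. The scripts were tested on simulated data. The genes and lists were chosen with earlier results of these data known. All 10 genes and the 14 related genes are named, and of the processing genes the 2 largest rises and falls that passed. For a symbol with several clusters, the brightest is given. Same-numbered arrays did not deviate together, so replicate numbers were not used as pairs. Alternatives covered the value added, floors, normalization, dim rows, variance trend, the methods' t-test, a replicate block, left-out arrays, 1 row per symbol and exon-level medians. The study's sequencing was not analysed here.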

Additional observations from a re-analysis of the deposited data

How the results depend on the processing

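Of 17 alternatives, Cck, Cartpt and Ntsr2 passed in all. The count of the 10 genes called lower was 5 in the comparison reported, 3 with the methods' t-test (Npff and Trh lost) and 3 to 6 with an array left out (3 without SMN replicate 2, 6 without posterior horn replicate 3). It was 7, with Gal and Galr1 added, where 16 was added before the log2, the dimmest 25% were left out or a variance trend with robust estimation was used. With the replicate block it was 4 (Npff lost). Correlations of same-numbered arrays' deviations were 0.03, -0.01 and 0.02. Other peptide system genes called lower fell from 4 to 2 with exon-level medians and were 2 to 3 with an array left out (2 without any SMN array or posterior horn replicate 3). Processing genes called higher were 4 with the variance trend, and those called lower were 3 with the replicate block and 3 to 7 with an array left out (3 without any SMN array, 4 without posterior horn replicate 2 and 5 without replicate 3).

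Probesets called lower, 6 as reported, were 12 with the dimmer 50% left out, 17 with the variance trend, 13 over probesets with a single symbol, 1 with the replicate block and 1 to 2 with an array left out. Those called higher were 0 with the block and 0 to 2 with an array left out.

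Changes of sign befell Trhr2, 0.03 with exon-level medians, and genes that never passed. With exon-level medians the log2 fold change was -0.048 for Ntsr1, -0.057 for Galr3, -0.10 for Sort1 and 0.42 for Npvf. With an array left out it ranged from -0.17 to 0.25 for Ntsr1, -0.055 to 0.245 for Galr2, -0.32 to 0.73 for Gpr160 and -0.62 to 0.16 for Npvf. The causes were not tested. Without detection calls, dim values such as those of Npff and Npffr2 in SMNs have no stated background.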
